A study of Mus musculus with 6 samples.

Results

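Cytosolic ribosomal protein genes were followed in 6 bulk RNA-Seq libraries of donor CD8+ T cells that circulated through the BM early after BMT. Members were taken by symbol, as genes named Rpl or Rps and a number, together with Rpsa, Rplp0, Rplp1 and Rplp2, and without pseudogenes and the S6 kinases. The deposited table lists 53 such genes among 14051 genes. Of these, 20 encode proteins of the small (40S) ribosomal subunit and 30 encode proteins of the large (60S) subunit, including the 3 stalk proteins. The other 3 are Rpl22l1, a paralog of Rpl22, and Rpl7l1 and Rps19bp1, whose products act outside the mature ribosome. The mouse annotation Gencode M39 holds 90 protein-coding genes that fit the rule, and the 37 that are not among the listed genes, such as Rpl5, Rpl10, Rps3 and Rps24, were not analysed here.

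Of the libraries, 3 carried the label GC-treated and 3 the label vehicle-treated. B6D2F1 recipients were irradiated and given T cells purified from B6.CD45.1 donors. The GC-treated recipients received dexamethasone, a synthetic glucocorticoid, at 5 mg/kg/day from day -1 to day 5, and the vehicle-treated recipients received its carrier, methyl β-cyclodextrin, over the same days. On day 5 an anti-CD45 antibody was injected i.v. to mark cells inside vessels, and the donor CD8+ T cells so marked were sorted out of BM that had been pooled over mice. No ages are stated in the labels. Whether every library had a pool of its own is left unsaid in the methods, so p-values below measure only the spread between these libraries. In bulk RNA, fewer cells of a type and less of an RNA per cell cannot be told apart.

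The cytosolic ribosome translates nuclear-encoded mRNAs, and its proteins are made in matched amounts, since a surplus of any one of them is degraded. Most ribosomal protein mRNAs, and those of several translation factors, begin with a C that is followed by a run of pyrimidines, the 5′ terminal oligopyrimidine (TOP) motif. Through this motif, LARP1 and the kinase complex mTORC1 control how well these mRNAs are translated and how long they are kept. In T cells, activation brings growth and a rise in ribosome production, and quiescent T cells hold TOP mRNAs in a less translated state.

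Of the 53 genes, 39 matched the RefSeq table of start sites on GRCm38.p6. A start with C followed by at least 4 pyrimidines was found for 10 of the 39 genes (25.6%), against 2.91% of the listed genes with an entry in that table. The 30 bases around these 10 starts are shown because the first bases of the transcript carry the TOP motif, with capitals marking the pyrimidine run from the annotated start onward, within 15 bases of it.
Rps6: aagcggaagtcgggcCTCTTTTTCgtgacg
Rps15a: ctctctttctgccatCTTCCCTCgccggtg
Rps18: tacgtcacttccgctCTCTCTTCCacagga
Rps21: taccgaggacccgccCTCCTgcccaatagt
Rpl15: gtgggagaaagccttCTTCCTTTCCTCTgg
Rpl28: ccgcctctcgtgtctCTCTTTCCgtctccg
Rpl35: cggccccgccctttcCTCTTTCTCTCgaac
Rpl35a: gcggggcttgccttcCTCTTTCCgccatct
Rpl38: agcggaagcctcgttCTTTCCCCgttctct
Rplp2: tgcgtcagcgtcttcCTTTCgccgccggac
On the minus strand of GRCm38.p6 lie the windows of Rps6 (chr4:86857353-86857382), Rps15a (chr7:118116133-118116162), Rps18 (chr17:33955651-33955680), Rpl15 (chr14:18270972-18271001) and Rpl35 (chr2:39005117-39005146). On its plus strand lie those of Rps21 (chr2:180257364-180257393), Rpl28 (chr7:4792950-4792979), Rpl35a (chr16:33056467-33056496), Rpl38 (chr11:114668565-114668594) and Rplp2 (chr7:141447636-141447665). An annotated start that is off by a few bases hides the motif, so the share is a description of the annotation. The motif CGGAAGT, or ACTTCCG on the other strand, which ETS family factors bind, occurred in the window from 250 bases before to 50 after the start of 14 of the 39 genes (35.9%), against 13.6% of the listed genes. ACTTCCG holds the letters CTTCC, so it can share bases with a TOP start.

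The libraries held 67887570 to 76888118 reads on listed genes in the group labelled GC-treated and 60949593 to 64801008 in the group labelled vehicle-treated. In all 15 pairs, 2 libraries differed beyond what counting noise gives. GC-treated 1 stood nearer to the vehicle-treated libraries than to its own group, with a chi-square per gene of 21.2 against vehicle-treated 1, 104 against GC-treated 2 and 149 against GC-treated 3. Nearest to GC-treated 2 was vehicle-treated 3 at 62.2, then vehicle-treated 1 at 86.6. Its own group followed, at 93.9 for GC-treated 3 and 104 for GC-treated 1, and vehicle-treated 2 was farthest at 151. GC-treated 3 was nearest to GC-treated 2, and next to vehicle-treated 3 at 121. Of the genes read here that glucocorticoids are known to induce, none had every GC-treated library above every vehicle-treated one. Fkbp5, a chaperone of the glucocorticoid receptor, had 21148, 16401 and 14780 normalized counts in GC-treated 1, 2 and 3, against 24889, 32705 and 21271 in vehicle-treated 1, 2 and 3. Its GC-treated libraries all lay below, GC-treated 1 only narrowly, as in 6.4% of tested genes. The log2 fold change of Fkbp5 was -0.59 (adjusted p = 0.62 from limma). Tsc22d3 had 1521, 3267 and 4689 against 2619, 4755 and 2994, a log2 fold change of -0.23 with groups that overlapped. Per1 had a log2 fold change of -0.26 and Dusp1 of 0.47, with groups that overlapped in both, and Zbtb16 was too low to be tested. Directions below are those of the labels, and group names stand for libraries so labelled. An exchange of all labels between the groups would turn the directions, and an exchange of single labels would change the fold changes themselves. Neither was tested. The 12 CD8+ T cell markers in the table summed to 527163 to 650143 normalized counts with the GC-treated label and 524468 to 559260 with the vehicle-treated label, and were high in all 6 libraries.

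No ribosomal protein gene passed the test between the groups. All 53 passed the filter on low values, and limma called 0 higher and 0 lower at an adjusted p of 0.05, where 0% of the 11649 tested genes were called. The tools edgeR and DESeq2, run on recovered reads, also called 0 of the 53. At an unadjusted p under 0.05 there were also 0 of the 53, against 2.12% of tested genes higher and 5.07% lower. The log2 fold changes were positive for 29 genes and negative for 24, from -0.13 to 0.31, with a median of 0.012, against -0.0079 over all tested genes. Fold changes are on the scale of log2(normalized count + 1), and each gene had a normalized count of at least 100 in every library, so the added 1 matters little. The 95% intervals reached a median of 0.31 to either side, and those of 47 genes lay within -0.5 to 0.5. The lowest limit was -0.58, for Rps21, and the highest was 0.78, for Rpl24.

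**Figure D1:**
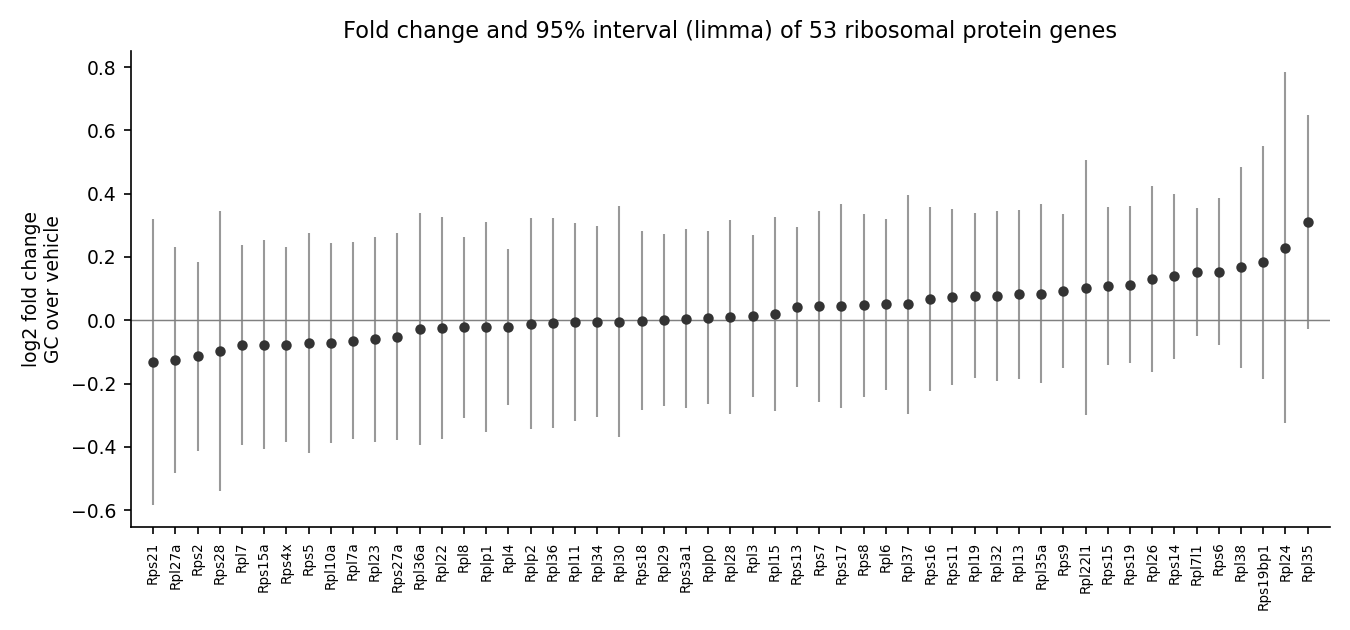
Log2 fold change (GC-treated over vehicle-treated) of each of the 53 ribosomal protein genes, ordered by value along the x axis, with points for the limma estimate and lines for its 95% interval. The estimates run from -0.13 for Rps21 to 0.31 for Rpl35, and every interval includes 0.

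The genes moved together from library to library instead, and most of that movement was inside the GC-treated group. Relative to each gene's mean over the 6 libraries, the median log2 deviation of the 53 genes was 0.094, -0.29 and 0.23 in GC-treated 1, 2 and 3, against 0.019, 0.043 and -0.087 in vehicle-treated 1, 2 and 3. GC-treated 2 was the lowest library for 48 of the 53 genes, and GC-treated 3 was the highest for 47. GC-treated 3 exceeded GC-treated 2 for all 53, by 1.17 to 1.66 times with a median of 1.43. The vehicle-treated range lay inside the GC-treated range for 45 genes. The median SD of log2 values was 0.28 in GC-treated and 0.069 in vehicle-treated libraries, while over all tested genes it was 0.20 and 0.12.

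**Figure D2:**
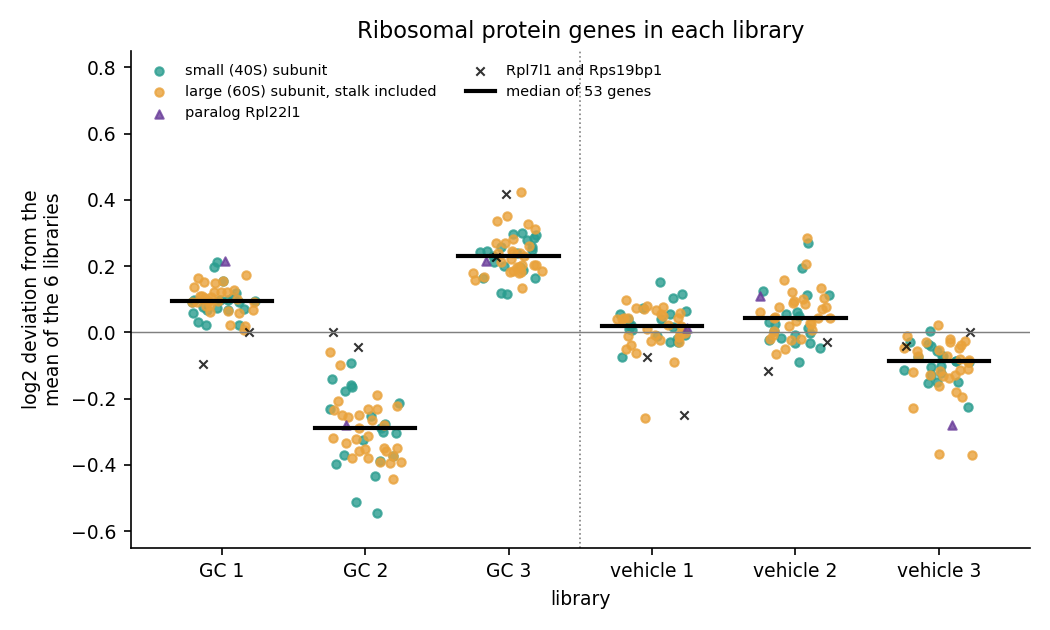
Log2 deviation of each of the 53 genes from its mean over the 6 libraries (y axis) in each library (x axis), GC-treated left of the dotted line and vehicle-treated right of it. Points are genes, marked by subunit, and black bars are medians, which lie at -0.29 in GC-treated 2 and at 0.23 in GC-treated 3.

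As a share of reads on listed genes, the 53 genes took 1.84%, 1.43% and 2.01% in GC-treated 1, 2 and 3, against 1.74%, 1.81% and 1.64% in vehicle-treated 1, 2 and 3. The Wilson 95% interval was 1.425% to 1.431% in GC-treated 2, and none was wider than 0.0067 percentage points, which covers counting error only. The groups averaged 1.76% ± 0.30 in GC-treated and 1.73% ± 0.084 in vehicle-treated libraries (SD, n = 3 each), a difference of 0.034 percentage points and well inside the spread. Other readings also varied between these libraries. Reads from the 13 genes of the mitochondrial genome took 0.902%, 0.400% and 0.615% in GC-treated 1, 2 and 3, against 0.910%, 1.13% and 0.757% in vehicle-treated 1, 2 and 3, and GC-treated 2 was the lowest there as well. Neutrophil markers, 13 of 16 in the table, summed to 1933, 12840 and 9122 normalized counts, against 904, 492 and 4644, with 3 of the 13 at 0 in some library. Their log2 fold changes were positive for 11 and negative for 2, Elane and Prtn3, which were highest in vehicle-treated 3. Tested genes outside the ribosomal protein set with the shortest coding sequences (up to 1023 bp) had median deviations of -0.032, 0.024 and 0.15, against -0.031, -0.039 and -0.038, and those with the longest (over 1845 bp) had 0.070, -0.020 and -0.22, against 0.076, 0.078 and 0.063. The coding sequences of the 53 genes had a median of 456 bp, against 1371 bp over listed genes. The part of these readings in the ribosomal protein values was not tested.

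**Figure D3:**
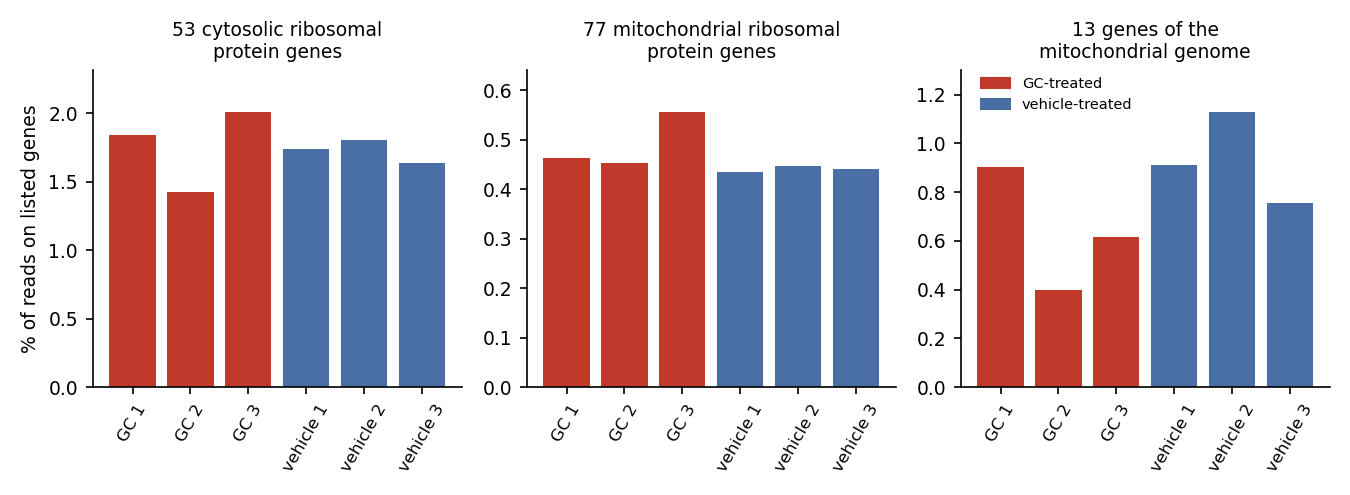
Percent of the reads on listed genes (y axes, each starting at 0) that fell on the 53 cytosolic ribosomal protein genes, the 77 mitochondrial ribosomal protein genes and the 13 genes of the mitochondrial genome, 1 bar per library, GC-treated in red and vehicle-treated in blue. The cytosolic share is lowest in GC-treated 2 at 1.43% and highest in GC-treated 3 at 2.01%, and the mitochondrial genome is lowest in GC-treated 2 at 0.400%.

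Among the 40S genes, Rps6 came nearest to a difference. It encodes the subunit protein that S6 kinases phosphorylate downstream of mTORC1, and spans 86748406 to 86775674 of chromosome 4 (GRCm39, reverse strand), where its exons share bases with Dennd4c. Rps6 had 50393, 46551 and 60959 normalized counts in GC-treated 1, 2 and 3, against 47116, 46648 and 47237 in vehicle-treated 1, 2 and 3. The vehicle-treated libraries lay close together, and GC-treated 2 fell just below them. Its log2 fold change was 0.15 (SE 0.10, adjusted p = 0.64 from limma). Rps14, whose loss underlies the anaemia of the human 5q- syndrome, had 30936, 26380 and 36264, against 28887, 28855 and 26572, a log2 fold change of 0.14. Rps19, mutated in human Diamond-Blackfan anaemia, had 29516, 26371 and 35419, against 28874, 28393 and 26599. In both genes the groups overlapped, with GC-treated 2 lowest and GC-treated 3 highest.

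In the 40S genes with the smallest p among negative values, GC-treated 2 was again the lowest library. Rps2, which lies near the mRNA entry channel, had 67797, 48339 and 68826 normalized counts in GC-treated 1, 2 and 3, against 65062, 69101 and 63521 in vehicle-treated 1, 2 and 3. Only GC-treated 2 stood apart there, and the log2 fold change was -0.11 (SE 0.13, adjusted p = 0.76 from limma). Rps21 had 3522, 2151 and 3327, against 3409, 3704 and 2628, with a log2 fold change of -0.13 (SE 0.20). Rps4x, on the X chromosome, had 27093, 19666 and 28536, against 26459, 27539 and 24461. Rps28, one of the smallest proteins of the ribosome, had 7628, 4510 and 7502, against 7075, 7533 and 5921, and the ratio of GC-treated 3 to GC-treated 2 was the largest of the 53, at 1.66. The other 13 genes of the 40S subunit, with mean normalized counts of 9384 to 42396, had log2 fold changes from -0.077 for Rps15a to 0.11 for Rps15. In all 13, GC-treated 2 was the lowest library and GC-treated 3 the highest. Over the 20 genes of the 40S subunit, 12 values were positive and 8 negative, with a median of 0.043.

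Among the 60S genes, Rpl35 had the smallest p of all 53 genes. It sits near the exit of the peptide tunnel, and its gene spans 38891591 to 38895637 of chromosome 2 (GRCm39, reverse strand), with exon bases shared with Arpc5l and Wdr38, which leaves some of its reads uncertain. Rpl35 had 3052, 2735 and 3822 normalized counts in GC-treated 1, 2 and 3, against 2678, 2836 and 2203 in vehicle-treated 1, 2 and 3. Vehicle-treated 2 lay above GC-treated 2, so the groups overlapped, and the log2 fold change was 0.31 (SE 0.15, adjusted p = 0.62 from limma). Rpl38, which in mouse embryos is needed for translation of some Hox mRNAs, had 9533, 7435 and 11126, against 8689, 8333 and 7696, a log2 fold change of 0.17. Here too GC-treated 2 was the lowest library and GC-treated 3 the highest.

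Rpl27a and Rpl7 had the smallest p among the 60S genes with negative values. Rpl27a had 8945, 6046 and 9009 normalized counts in GC-treated 1, 2 and 3, against 8619, 9472 and 7727 in vehicle-treated 1, 2 and 3, a log2 fold change of -0.12. Rpl7 had 34130, 24850 and 37502, against 33546, 34921 and 31972, a log2 fold change of -0.079. Rpl11 and Rpl23, which bind MDM2 when ribosome assembly fails, had log2 fold changes of -0.0060 and -0.060. Rpl11 had 16426, 11438 and 16356, against 15015, 15028 and 13790, so GC-treated 1 was the highest library by a small margin. The most abundant 60S genes outside the stalk followed the more common order. Rpl4, which lines the peptide tunnel, had 75250, 60591 and 80399, against 70280, 76026 and 71603, a log2 fold change of -0.021. Rpl3, which reaches the peptidyl transferase centre, had 62966, 50577 and 69264, against 59137, 61586 and 58974, a log2 fold change of 0.013. For Rpl13 the counts were 53808, 44676 and 62271, against 50570, 52264 and 47803, with GC-treated 2 the lowest and GC-treated 3 the highest library in all 3 genes. Rpl36a, on the X chromosome and sharing exon bases with Gla, had 5665, 3879 and 5839, against 5333, 5591 and 4557. The other 15 genes of the 60S subunit, with mean normalized counts of 5675 to 30120, had log2 fold changes from -0.071 for Rpl10a to 0.13 for Rpl26. Each of the 15 was lowest in GC-treated 2 and highest in GC-treated 3. Over the 30 genes of the 60S subunit, 14 values were positive and 16 negative, with a median of -0.0024.

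The stalk proteins, which recruit the GTPases of translation, did not pass the test. Rplp0, the stalk base and the most abundant of the 53 mRNAs, spans 115694515 to 115701793 of chromosome 5 (GRCm39). It had 95993, 74952 and 105338 normalized counts in GC-treated 1, 2 and 3, against 90116, 93894 and 88022 in vehicle-treated 1, 2 and 3, a log2 fold change of 0.0084 (SE 0.12). Rplp1 and Rplp2, which pair with each other on the stalk, gave -0.021 and -0.011. Their ratio within a library was 1.27, 1.30 and 1.31, against 1.34, 1.28 and 1.29. The summed 40S over the summed 60S counts were likewise narrow, at 0.768, 0.776 and 0.772, against 0.776, 0.757 and 0.762, although the sums themselves differed by far more between GC-treated 2 and GC-treated 3.

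The genes of the 2 proteins outside the ribosome were among the 5 in which GC-treated 2 was not the lowest library, with Rpl24, Rpl35 and Rpl22l1, and both were highest in GC-treated 3. Rpl7l1, a factor in 60S assembly, spans 47084824 to 47093606 of chromosome 17 (GRCm39, reverse strand). It had 12843, 12832 and 15010 normalized counts in GC-treated 1, 2 and 3, against 12199, 11839 and 12481 in vehicle-treated 1, 2 and 3. Rpl7l1 was the single gene of the 53 whose groups did not overlap, where 6.4% of tested genes had every GC-treated library above every vehicle-treated one and 6.4% every one below. Its log2 fold change was 0.15 (SE 0.089, adjusted p = 0.63 from limma). Rps19bp1, which binds RPS19 and the deacetylase SIRT1, had 1180, 1223 and 1685, against 1061, 1238 and 1262. Its groups overlapped.

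Rpl22 and Rpl22l1 are of interest in T cells because in mice Rpl22 is needed for development of the αβ lineage and represses its paralog. Rpl22 had 4410, 3063 and 4513 normalized counts in GC-treated 1, 2 and 3, against 4094, 4322 and 3621 in vehicle-treated 1, 2 and 3. Rpl22l1 had 1145, 813 and 1145, against 995, 1065 and 812. Both counts overlapped between groups, but the ratio of Rpl22l1 to Rpl22 did not, at 0.260, 0.265 and 0.254, against 0.243, 0.246 and 0.224. The mean ratio was 1.09 times as high with the GC-treated label, and an exact 2-sided permutation test gave p = 0.1, which is the smallest that 3 against 3 libraries allow, and 0.2 after adjustment over the 2 ratios tested. The other ratio tested, Rpl7l1 to Rpl7, was 0.376, 0.516 and 0.400, against 0.364, 0.339 and 0.390 (exact permutation p = 0.2). Both ratios were chosen with results of these data known. The smallest p that this test can give, 0.1, lies above the threshold used for genes. No ratio could therefore have reached it, and the test cannot decide whether either ratio differs between the groups.

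With the library median of the 53 genes removed, what remained was small for most. The SD of this remainder over the 6 libraries had a median of 0.061 on the log2 scale, against 0.071 for mitochondrial ribosomal proteins about their own median, 0.084 for other TOP genes and 0.19 over all tested genes. The 12 CD8+ T cell markers had a median SD of 0.059 about their own median, so a small remainder was not particular to this family. The value over all tested genes includes genes with low counts. Among the 53 genes the SD was at most 0.1 for 44, and lowest for Rps7 at 0.023 and Rplp0 at 0.026. The 9 genes above 0.1 were Rpl24, Rps19bp1, Rpl35, Rps21, Rpl7l1, Rps28, Rps6, Rpl27a and Rpl22l1. In GC-treated 2 the remainder was positive for Rpl7l1 at 0.29, Rps19bp1 at 0.24, Rpl35 at 0.23, Rps6 at 0.20 and Rpl24 at 0.19, so these genes were less low there than the rest. Rps28, Rps21 and Rpl27a, at -0.26, -0.22 and -0.15, were lower there than the rest. Rpl22l1 had its largest remainder in vehicle-treated 3, at -0.19.

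**Figure D4:**
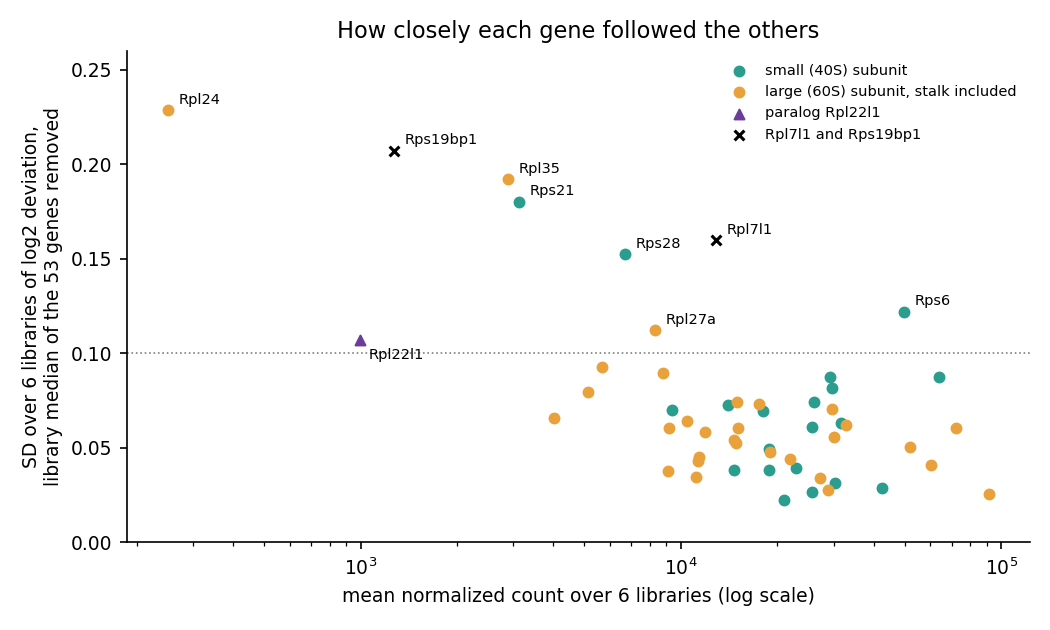
SD over the 6 libraries of each gene's log2 deviation after the library median of the 53 genes was removed (y axis), against its mean normalized count (x axis, log scale). Points are genes, marked by subunit, and the dotted line is at 0.1. Rpl24, at 0.228, lies highest, and 44 genes lie at or below the line.

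Levels per length differed widely between the genes. Per 1000 bases of coding sequence, the mean normalized count was highest for Rplp0 at 96094, Rpl13 at 81989, Rps2 at 72553 and Rps6 at 66690, and lowest for 3 genes, namely Rps19bp1 at 2971, Rpl22l1 at 2743 and Rpl24 at 533, the last with 572 in GC-treated and 494 in vehicle-treated libraries. Rpl24 encodes a core 60S protein, which the ribosome holds in the same number as its neighbours. It had 266, 230 and 312 normalized counts in GC-treated 1, 2 and 3, against 206, 301 and 191 in vehicle-treated 1, 2 and 3. Of the 53 genes, 39 have a named pseudogene in Gencode M39 and 41 share exon bases with another annotated gene, 13 of them with a coding one, and 17 carry snoRNAs inside the gene (31 in all). The library kit does not mark strand, the reads were counted with summarizeOverlaps at its default settings, and the alignment settings for reads that fit several copies are not stated in the methods, so levels between the genes are uncertain. The 10 genes with a TOP start had a median log2 fold change of 0.016 and the 29 others with a matched start 0.041. The 29 can hold TOP genes whose annotated start is off, so this does not compare TOP with other mRNAs.

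Related genes were read beside them. Rack1, a 40S-bound scaffold, had 45250, 39613 and 53492 normalized counts in GC-treated 1, 2 and 3, against 41124, 40481 and 41493 in vehicle-treated 1, 2 and 3, a log2 fold change of 0.16, with groups that overlapped. Fau, which encodes eS30, had a log2 fold change of 0.12. Among 20 other tested genes listed for TOP mRNAs, most of them translation factors, 10 values were positive and 10 negative, with a median of -0.0037, and 0 had an unadjusted p under 0.05. With 1 library left out, 5 to 12 were positive and the median ran from -0.082 without GC-treated replicate 3 to 0.098 without GC-treated replicate 2. In 3 of the 20, Eef1a1, Eif3a and Vim, every GC-treated library lay below every vehicle-treated one, against 6.4% of all tested genes. Eef1a1, the elongation factor that brings aminoacyl-tRNA, had 163090, 123261 and 154082, against 171683, 180387 and 164806, a log2 fold change of -0.24 (adjusted p = 0.62 from limma), which did not pass the test. In these genes the medians by library were 0.031, -0.16 and 0.18, against -0.026, 0.059 and -0.013, the same order as in the ribosomal protein genes within the GC-treated group.

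In the mTORC1 pathway, 22 genes were tested, with 10 positive and 12 negative values and a median of -0.040. At an unadjusted p under 0.05 there were 0 higher and 4 lower, namely Sesn2 at -0.34 and Tsc1 at -0.38, which restrain mTORC1, Rptor at -0.47, which encodes its scaffold, and the low Rragd at -1.35, each with an adjusted p of 0.62 from limma, where 5.07% of all tested genes were lower by that unadjusted threshold. With 1 library left out, 0 to 5 of the 22 were under it in either direction, with 0 without GC-treated replicate 2 or without vehicle-treated replicate 1. Larp1, which binds TOP mRNAs, had a log2 fold change of -0.021, and Rps6kb1, an S6 kinase, 0.085. Of 8 tested genes on the p53 branch of ribosomal stress, 3 values were positive and 5 negative, with 1 gene above and 1 below in every GC-treated library, against 6.4% of all tested genes for each. The one below was Sesn2, at -0.34. Bax, which drives apoptosis, had 3280, 3412 and 3832 normalized counts in GC-treated 1, 2 and 3, against 2813, 2740 and 2904 in vehicle-treated 1, 2 and 3, a log2 fold change of 0.31 (adjusted p = 0.62 from limma). Its GC-treated libraries all lay above, and Cdkn1a, at 0.050, and Mdm2, at 0.023, had groups that overlapped.

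Genes of ribosomal protein chaperones and of 5S particle assembly had 10 positive values of 11 tested, with a median of 0.18. Of these, 1 was higher at an unadjusted p under 0.05, against 2.12% of all tested genes, and 2 had every GC-treated library above every vehicle-treated one, against 6.4%. In either direction, 0 to 3 were under that threshold with 1 library left out, with 3 without GC-treated replicate 1. Rrp7a, a 40S assembly factor, had 4925, 5701 and 6138 normalized counts in GC-treated 1, 2 and 3, against 4545, 4508 and 4865 in vehicle-treated 1, 2 and 3, a log2 fold change of 0.26 (adjusted p = 0.62 from limma). The median without GC-treated replicate 3 was 0.055, with 8 of 11 positive. None of the 10 snoRNA host genes with TOP transcripts was among the listed genes, so they were not analysed here.

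The mitochondrial ribosomal proteins, which build the separate ribosome that translates the mitochondrial genome, had GC-treated 2 close to GC-treated 1. Of 77 tested genes, 76 values were positive and 1, Mrpl9, was negative, with a median of 0.15, while 0 passed the adjusted threshold and 4 were higher at an unadjusted p under 0.05, against 2.12% of all tested genes. In either direction, 13 were under that threshold without GC-treated replicate 1 and 0 without vehicle-treated replicate 2. Their groups did not overlap for 24 of 77 genes, all with GC-treated above, against 6.4% of all tested genes. Mrps10 had 3917, 3745 and 4470 normalized counts in GC-treated 1, 2 and 3, against 3163, 3220 and 3472 in vehicle-treated 1, 2 and 3, a log2 fold change of 0.30 (adjusted p = 0.62 from limma). The list medians were -0.016, -0.033 and 0.27, against -0.088, -0.086 and -0.069, with GC-treated 3 farthest above the rest. Without GC-treated replicate 3, 62 of 77 values were positive and the median was 0.054. Whether the 2 families differ in their fold changes was not tested.

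**Figure D5:**
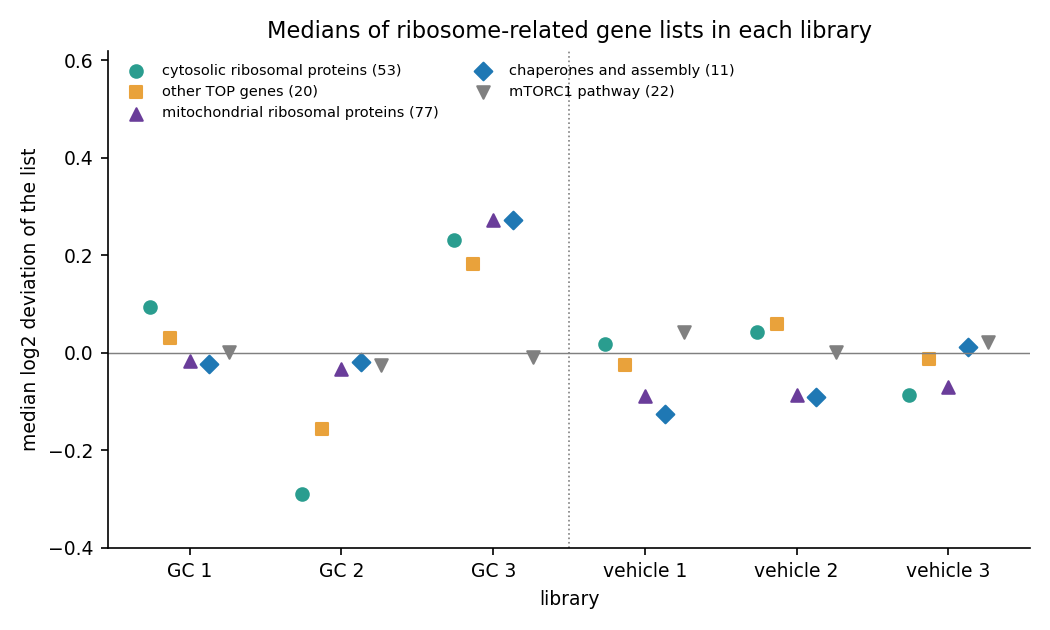
Median log2 deviation (y axis) of 5 gene lists in each library (x axis), GC-treated left of the dotted line and vehicle-treated right of it. Points are list medians over the genes tested. GC-treated 2 is at -0.29 for cytosolic and at -0.033 for mitochondrial ribosomal proteins, and GC-treated 3 is at 0.23 and 0.27.

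Which single libraries were read decided the sign of the cytosolic values. Without GC-treated replicate 2, all 53 log2 fold changes were positive, with a median of 0.17, and 6 had an unadjusted p under 0.05, where the same fit had 1.82% of all tested genes higher by that threshold. Without GC-treated replicate 3, 10 were positive and 43 negative, with a median of -0.096. In both cases limma called 0 of the 53 at an adjusted p under 0.05.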

How the data were processed

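RNA-Seq was read from 6 libraries, 3 labelled GC-treated and 3 labelled vehicle-treated. The authors made cDNA with SMART v4 and Nextera XT kits, aligned reads with STAR to GRCm39 with Gencode M26, counted them per gene with summarizeOverlaps at its defaults and used DESeq2. They deposited 1 table of 14051 symbols whose values are a normalized signal, the counts of a library divided by its size factor. Whole reads were recovered (100% of values within 0.001 of a whole read). The factor of GC-treated 2, at 1.008, lies near 1, but its deposited values were not whole numbers before this step.

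Genes whose value reached 10 in 3 or more libraries, 11649 in all, were tested by limma 3.58.1 (R 4.3.3, with a trend of the variance on the mean) after log2(value + 1), and p-values were adjusted over them by Benjamini-Hochberg, with a threshold of 0.05. Alternatives were edgeR 4.0.16 and DESeq2 1.42.0 on recovered reads, other scaling, pseudocounts, filters and thresholds, a block for the replicate number, and the removal of each library. Positions and coding lengths are from Gencode M39 on GRCm39, which is later than the authors' annotation, and start sequences from RefSeq on GRCm38.p6. No column was left out.

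The genes, lists and ratios were chosen with earlier results of these data known. Named genes were the 5 members with the smallest p in each direction, the 5 with the highest and the 5 with the lowest mean, paralogs with their parents, members with known separate roles, and up to 4 genes of each list by p. Rps7, Rps28, Larp1, Rps6kb1, Mdm2, Cdkn1a, Mrpl9, Fkbp5, Tsc22d3, Per1, Dusp1 and Zbtb16 were named outside this rule. Explanations for the differences between libraries were not tested.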

Additional observations from a re-analysis of the deposited data

How the results depend on the processing

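No cytosolic ribosomal protein gene was called at an adjusted p under 0.05 under any alternative run (0 higher and 0 lower). Over all genes, DESeq2 called 2 lower and limma without a trend called 1 lower, and leaving out 1 library gave 0 to 2 higher and 0 to 43 lower, the highest without GC-treated replicate 1, and the cause was not tested. For the 53 genes, the median log2 fold change was 0.0056 to 0.026 under other tests and scalings and 0.0067 without Rpl22l1, Rpl7l1 and Rps19bp1. It ran from -0.096 to 0.17 with 1 library left out. The difference in the share of reads ran from -0.092 to 0.20 percentage points with 1 library left out, an alternative chosen after seeing the data, and was 0.044 with the mitochondrial genome and the highest genes out of the denominator. With the replicate block 0 genes were called. Each replicate number has 1 library in each group, so the block could not move the median, which stayed at 0.012. Whether the numbers pair the samples is not stated in the labels. Deviations of same-numbered libraries had correlations of 0.063, -0.14 and 0.13. These were not set beside those of differently numbered libraries, so they do not decide it.

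The sign of Rpl11 turned to 0.013 and 0.012 in edgeR with the deposited factors and with TMM and to 0.014 in DESeq2, and that of Rplp2 to 0.0075, 0.0061 and 0.0087. With 1 library left out, signs turned for 17 of the 24 named genes. Negative values ran from -0.20 to 0.053 for Rps2, -0.22 to 0.066 for Rpl27a, -0.28 to 0.091 for Rps21, -0.18 to 0.090 for Rps4x, -0.20 to 0.097 for Rpl7, -0.10 to 0.10 for Rpl4, -0.12 to 0.16 for Rpl22, -0.13 to 0.16 for Rpl36a, -0.094 to 0.17 for Rpl11, -0.17 to 0.12 for Rpl23, -0.15 to 0.15 for Rplp1 and -0.13 to 0.17 for Rplp2. Positive values ran from -0.096 to 0.15 for Rplp0, -0.086 to 0.14 for Rpl3, -0.033 to 0.21 for Rpl13, -0.011 to 0.27 for Rpl22l1 and -0.0020 to 0.21 for Rps19. The other 7 kept their sign but moved by over 1.5 times, to 0.18 for Rpl35, 0.043 for Rps6, 0.025 for Rps14, 0.033 for Rpl38, 0.021 for Rps19bp1 and 0.077 for Rpl7l1 without GC-treated replicate 3 and to 0.10 for Rpl24 without vehicle-treated replicate 3.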
